A study of Mus musculus with 10 samples.

Results

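The genes described here are 37 mouse receptors and receptor subunits for cytokines other than interleukin-17 (IL-17), in ribosome-bound RNA from 3 Cre driver lines. They were listed by symbol, with no threshold on measured values but with earlier results of these data known, from the interleukin, gp130, interferon, tumor necrosis factor (TNF) and transforming growth factor beta (TGF-beta) receptor families. The 37 are among 55536 gene identifiers in the count table, and 35 of them were among the 20301 genes with enough counts to be tested. The mice were Il-17ra-Cre (n = 3 libraries), Il-17rb-Cre (n = 3) and Il-17rc-Cre (n = 4), in which Cre recombinase is driven by the gene of the IL-17 receptor subunit named. All of them had received AAV5-EF1α-Flex-EGFPL10a in the S1DZ, a part of the somatosensory cortex, at 400 nl per side and 0.1 µl per minute. Where Cre is active this virus gives a ribosomal protein tagged with green fluorescent protein, and 4 weeks later the tagged ribosomes and their RNA were pulled down (translating ribosome affinity purification, TRAP) and sequenced. The virus and the Cre thus both decide which cells are read, and a driver line gives the cells in which its Cre acted by the time of the pull-down. The labels give neither age nor sex, and there was no group without Cre or virus among the libraries used.

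Cytokine receptors are mostly assembled from a chain that binds the ligand and a chain shared by several ligands. The interleukin, gp130 and interferon receptors signal through Janus kinases (JAK) and STAT transcription factors, the interleukin-1 and TNF receptors through adaptors that lead to NF-kappaB or to cell death, and the TGF-beta receptors through SMAD proteins. In the brain these receptors are best known from glia and vessel cells, where they relay inflammation, although neurons carry some of them. The design of the study asks which genes the cells behind each of the 3 drivers translate.

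The libraries held between 39692925 and 165844244 counts. Cell type markers set the driver lines apart before any receptor was read. Markers of excitatory neurons summed to between 17500 and 20570 CPM (counts scaled to library size by the TMM method) in the Il-17rb-Cre libraries, above the 1540 to 6575 CPM of Il-17ra-Cre and the 2124 to 3537 CPM of Il-17rc-Cre. Astrocyte markers ran the other way, between 578.4 and 610.7 CPM in Il-17rb-Cre, 6733 and 13340 in Il-17ra-Cre and 11040 and 17020 in Il-17rc-Cre. All 10 microglial markers were lower in Il-17rb-Cre than in Il-17ra-Cre by edgeR's test, as were 24.4% of all tested genes. The sum of these markers ranged from 19.16 to 25.34 CPM against 684.8 to 1180 CPM. In Il-17rc-Cre the microglial sum lay between 38.31 and 200.5 CPM. There 7 of the 10 markers were higher than in Il-17rb-Cre, as were 21.9% of all tested genes. Of the 10 markers only Itgam had no counts in any Il-17rb-Cre library, and its mean was 2.55 CPM in Il-17ra-Cre and 0.57 CPM in Il-17rc-Cre. Il-17ra-Cre replicate 3 stood apart from the other two of its line, with 5139 CPM of oligodendrocyte markers against 43140 and 29630 and with the highest excitatory sum of that line. Transcripts of the driver genes did not all follow the labels, for Il17rb ranged from 0.614 to 0.872 CPM in Il-17rb-Cre and from 1.27 to 3.75 CPM in Il-17ra-Cre. In pulled-down RNA of many cells, fewer cells of a type and less RNA per cell cannot be told apart, and the part of cell types in the results was not tested.

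**Figure D1:**
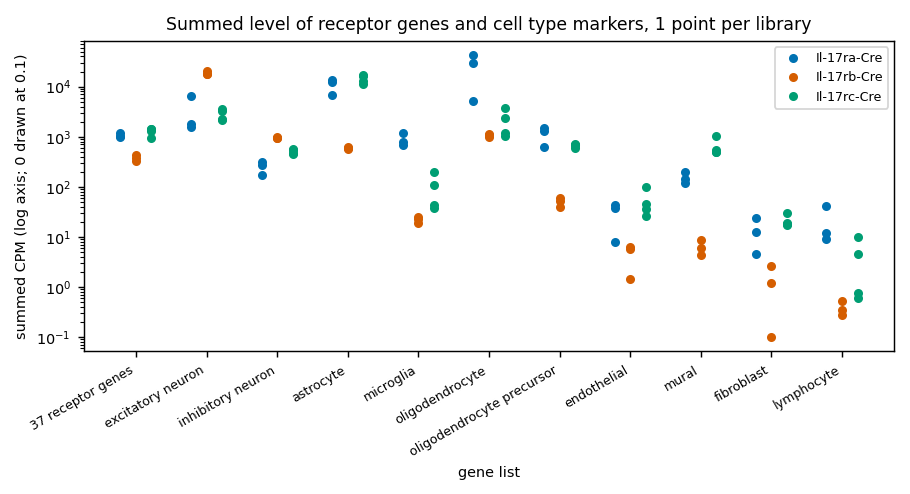
Summed CPM (log axis) of the 37 receptor genes and of 10 lists of cell type markers, with 1 point per library and the driver line by color. The Il-17rb-Cre libraries sit between 17500 and 20570 CPM for excitatory neuron markers and between 322.6 and 430.7 CPM for the receptor genes, and a sum of 0 is drawn at 0.1.

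The receptor genes were low in the Il-17rb-Cre libraries as a group. Their summed level was 322.6, 430.7 and 372.2 CPM in the 3 Il-17rb-Cre libraries, below the 997.6, 1188 and 1047 CPM of Il-17ra-Cre and the 958.4, 1397, 1324 and 1451 CPM of Il-17rc-Cre. Against Il-17ra-Cre, 27 of the 35 tested receptors were lower in Il-17rb-Cre and 1, Tnfrsf21, was higher (edgeR's quasi-likelihood test, Benjamini-Hochberg adjusted over all genes tested, threshold 0.05). That is 77.1% lower, where 24.4% of all tested genes were lower and 16.4% higher. The median log2 fold change of the receptors was -2.38, beside -0.09 over all tested genes. The 3 Il-17rb-Cre libraries lay below every Il-17ra-Cre library for 30 of the receptors, an ordering that 29.2% of all tested genes showed, and above them for 1, as for 24.6% of all genes. Without Il-17ra-Cre replicate 3 the test called 29 receptors, and without replicate 2 it called 22. With replicate 3 as the only Il-17ra-Cre library, all 28 kept their direction, 15 of them passed (16 receptors in all) and the median was -1.37. That fit takes the spread from the other lines alone. The 13 that did not pass included Il6st, Lifr, Il10rb, Tnfrsf1b and Tnfrsf21.

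Against Il-17rc-Cre the picture was of the same kind and slightly smaller. There 23 of 35 receptors were lower in Il-17rb-Cre and none higher, which is 65.7% lower beside 21.9% of all tested genes, with 17.7% of all genes higher. By edgeR 1 receptor, Tnfrsf21, was higher at an unadjusted p under 0.05. DESeq2 called 0 receptors higher and limma voom 2 (Il1rap and Tnfrsf21), and edgeR called Tnfrsf21 with upper quartile scaling or without Il-17rc-Cre replicate 2. Of all genes, 25.5% had every Il-17rb-Cre library below every Il-17rc-Cre library, as 24 receptors did. The reverse ordering held for 1 receptor, Tnfrsf25, and for 27.5% of all genes. The median log2 fold change was -2.08, against 0.02 over all tested genes. The Il-17rb-Cre libraries serve in both comparisons, so they are not independent of each other. The labels do not say whether the libraries of a line are from separate animals, so p-values measure the spread between these libraries.

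**Figure D2:**
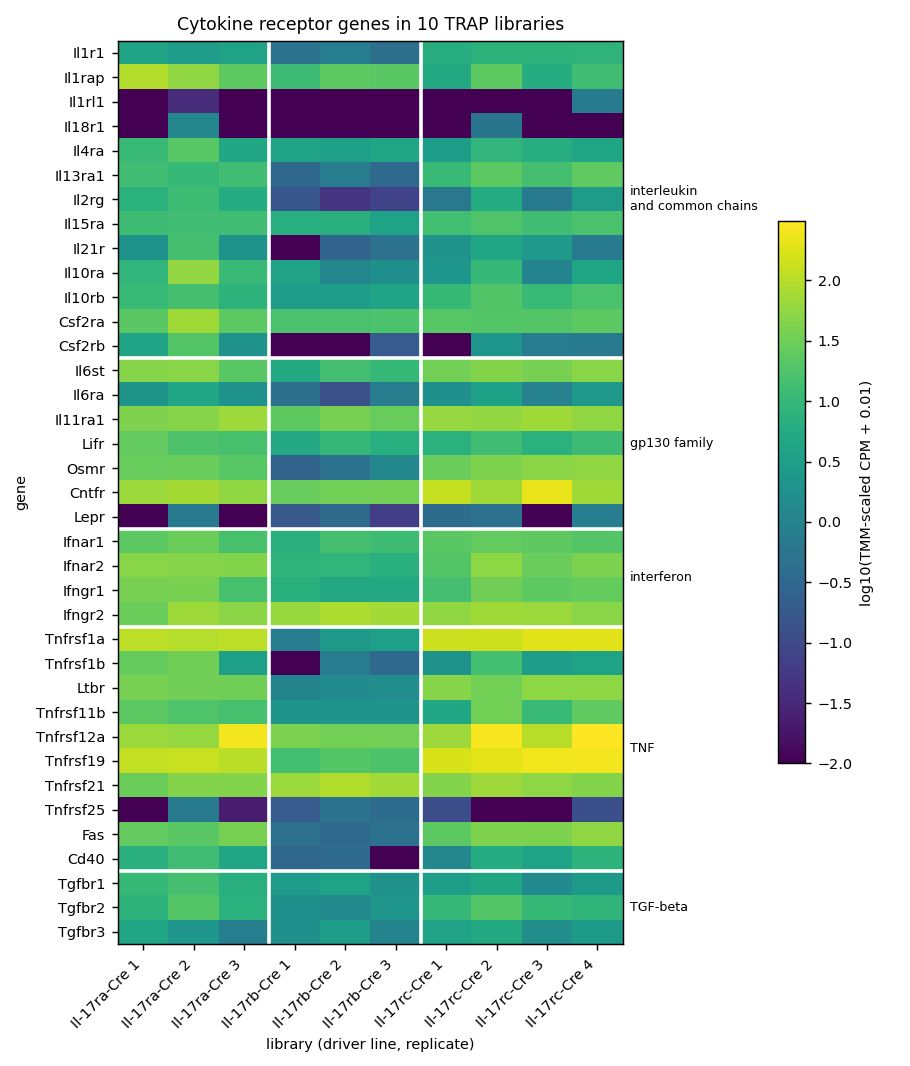
Level of each of the 37 receptor genes (rows, by receptor class) in each of the 10 libraries (columns, by driver line), as log10 of CPM plus 0.01. The 3 Il-17rb-Cre columns are dark for most genes, and Tnfrsf12a, Tnfrsf21, Ifngr2 and Cntfr are among those that stay bright in every library.

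**Figure D3:**
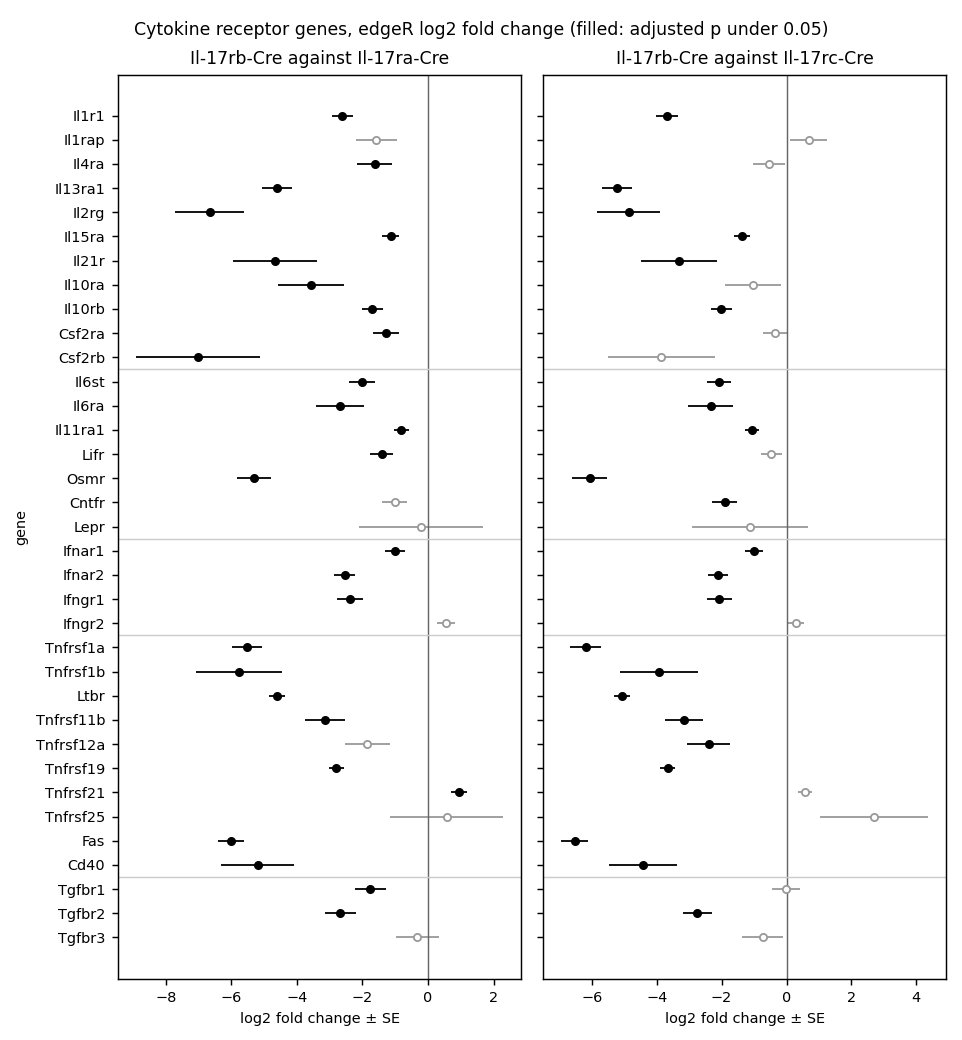
Log2 fold change with its standard error for the 35 tested receptor genes, Il-17rb-Cre against Il-17ra-Cre (left) and against Il-17rc-Cre (right), with filled points where the adjusted p is under 0.05. All filled points lie left of 0 except that of Tnfrsf21 at 0.95 in the left panel.

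Among the 13 interleukin receptors and common chains, 11 were tested. In Il-17rb-Cre, 10 were lower than in Il-17ra-Cre (class median log2 fold change -2.61), beside 24.4% of all tested genes. Against Il-17rc-Cre 6 were lower (-2.01), beside 21.9% of all tested genes. Il13ra1 (ENSMUSG00000017057, chrX:36112110-36171259 on GRCm38), a chain that binds interleukin-13 and joins Il4ra, had the smallest p of the class. Its level was 12.75, 10.27 and 12.93 CPM in Il-17ra-Cre, 0.32, 0.80 and 0.33 CPM in Il-17rb-Cre and 11.21, 23.20, 14.59 and 24.34 CPM in Il-17rc-Cre. All Il-17rb-Cre libraries were thus under 1 CPM, and no other library was. The log2 difference was -4.62 ± 0.46 (SE) against Il-17ra-Cre (edgeR adjusted p = 6.29e-05) and -5.23 ± 0.47 against Il-17rc-Cre (edgeR adjusted p = 2.49e-05). Its partner Il4ra, which binds interleukin-4, moved less. It stood at 3.79, 3.38 and 4.59 CPM in Il-17rb-Cre, 11.05, 20.67 and 4.75 CPM in Il-17ra-Cre and 3.09, 9.12, 6.26 and 4.26 CPM in Il-17rc-Cre. The Il4ra difference from Il-17ra-Cre was -1.63 ± 0.53 (edgeR adjusted p = 0.033) and missed the threshold in 8 of 21 alternative analyses, with -1.03 and an adjusted p of 0.152 without Il-17ra-Cre replicate 2. Against Il-17rc-Cre it did not pass.

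Il1r1 (ENSMUSG00000026072, chr1:40225080-40317257), the signalling receptor of interleukin-1, stood at 0.51, 0.81 and 0.44 CPM in Il-17rb-Cre. In Il-17ra-Cre it stood at 4.12, 2.89 and 3.8 CPM, and in Il-17rc-Cre at 6.32, 7.97, 7.98 and 8.24 CPM. The 3 lines did not overlap, and Il-17rb-Cre was lower than Il-17ra-Cre by a log2 difference of -2.61 ± 0.33 (edgeR adjusted p = 0.000221) and lower than Il-17rc-Cre by -3.69 ± 0.33 (edgeR adjusted p = 2.63e-05). Its accessory chain Il1rap, which interleukin-33 and interleukin-36 receptors also use, passed in neither comparison. Il1rap was at 12.16, 23.77 and 22.06 CPM in Il-17rb-Cre, at 93.59, 55.30 and 23.88 CPM in Il-17ra-Cre and at 5.29, 23.62, 5.98 and 13.09 CPM in Il-17rc-Cre. The Il-17rb-Cre libraries lay below those of Il-17ra-Cre (edgeR adjusted p = 0.0688), and 6 of 21 alternatives called Il1rap lower, DESeq2 (-1.61, adjusted p = 0.0202) and the fits without Il-17ra-Cre replicate 3 (-1.94, 0.0254) or Il-17rc-Cre replicate 2 (-1.58, 0.0391) among them. The other two chains of this family, Il1rl1 (the interleukin-33 receptor) and Il18r1 (the interleukin-18 receptor), had too few counts to be tested. Il1rl1 had 1 count in Il-17ra-Cre replicate 2 and 49 counts in Il-17rc-Cre replicate 4, and 0 in the other libraries. Il18r1 had 44 counts in Il-17ra-Cre replicate 2 and 39 in Il-17rc-Cre replicate 2, and 0 in the other libraries.

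Il2rg (ENSMUSG00000031304, chrX:101264378-101268255), the gamma chain shared by the receptors of interleukin-2, interleukin-4, interleukin-15 and interleukin-21, stood at 0.15, 0.04 and 0.07 CPM in Il-17rb-Cre, which were 8, 3 and 5 counts. It stood at 7.44, 12.66 and 6.05 CPM in Il-17ra-Cre and at 0.62, 5.85, 0.68 and 2.86 CPM in Il-17rc-Cre. The log2 difference was -6.66 ± 1.05 against Il-17ra-Cre (edgeR adjusted p = 0.000843) and -4.86 ± 0.97 against Il-17rc-Cre (edgeR adjusted p = 0.00302). The libraries are unstranded, and 30.5% of the exonic bases of Il2rg are shared with the predicted gene Gm20489, so reads there cannot be told apart. A pair of chains that join it were lower too. Il15ra, which binds interleukin-15, was lower by -1.14 ± 0.25 and -1.37 ± 0.24 (edgeR adjusted p = 0.0047 and 0.00138). Il21r, the receptor of interleukin-21, was lower by -4.66 ± 1.28 and -3.32 ± 1.18 (edgeR adjusted p = 0.015 and 0.0463), from 0, 0.27 and 0.46 CPM in Il-17rb-Cre. The Il21r difference from Il-17ra-Cre was -3.03 (adjusted p = 0.0732) without Il-17ra-Cre replicate 2 and -4.70 (0.0512) without Il-17rb-Cre replicate 2, and that from Il-17rc-Cre missed the threshold when any of 6 libraries was left out, with adjusted p values from 0.0619 to 0.116.

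The receptors of interleukin-10 and of granulocyte-macrophage colony-stimulating factor were uneven within Il-17ra-Cre. Il10ra, the chain that binds interleukin-10, was at 9.17, 58.59 and 10.40 CPM there, at 3.83, 1.12 and 1.69 CPM in Il-17rb-Cre and at 2.24, 10.25, 1.04 and 4.50 CPM in Il-17rc-Cre. Its difference from Il-17ra-Cre was -3.56 ± 1.00 (edgeR adjusted p = 0.0169), or -2.16 (adjusted p = 0.0798) without Il-17ra-Cre replicate 2. It passed the threshold neither without Il-17rb-Cre replicate 2 (-3.24, adjusted p = 0.0615) nor without replicate 3 of that line (-3.40, adjusted p = 0.06). Il10rb, the broadly used second chain, was lower in Il-17rb-Cre than in both lines, by -1.70 ± 0.32 and -2.01 ± 0.31 (edgeR adjusted p = 0.00217 and 0.000692). Csf2ra, the alpha chain of the granulocyte-macrophage receptor, was at 21.57, 71.43 and 22.85 CPM in Il-17ra-Cre and between 15.51 and 16.58 CPM in Il-17rb-Cre. The Csf2ra difference was -1.27 ± 0.40 (edgeR adjusted p = 0.0276), and -0.49 (adjusted p = 0.0586) without Il-17ra-Cre replicate 2. Leaving out any Il-17rb-Cre library also took it over the threshold, with adjusted p values from 0.0668 to 0.0774. Csf2rb, the common beta chain, had 13 counts in Il-17rb-Cre, all in replicate 3, and was at 4.10, 19.40 and 1.92 CPM in Il-17ra-Cre. That difference was -7.01 ± 1.89 (edgeR adjusted p = 0.0138) and did not pass without Il-17ra-Cre replicate 2 (-5.54, adjusted p = 0.0558), and reads from its near-identical neighbour Csf2rb2 make it uncertain. Against Il-17rc-Cre, Csf2rb passed only without Il-17rc-Cre replicate 1 (-4.27, adjusted p = 0.0405). Il-17ra-Cre replicate 2 also had the highest sums of microglial markers (1180 CPM) and of lymphocyte markers (40.47 CPM) of all libraries, and what these have to do with the chains that peak there was not tested.

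The gp130 class has 7 members, all tested, of which 5 were lower in Il-17rb-Cre in each comparison (class medians -1.42 and -1.90). Of all tested genes, 24.4% and 21.9% were lower. Osmr (ENSMUSG00000022146, chr15:6813577-6874969), the oncostatin M receptor, was lower by the most. It was at 0.26, 0.47 and 1.23 CPM in Il-17rb-Cre, at 27.39, 29.48 and 21.41 CPM in Il-17ra-Cre and at 29.42, 42.21, 50.50 and 55.88 CPM in Il-17rc-Cre. All Il-17rb-Cre libraries lay below those of both other lines, which overlapped each other, and the log2 differences were -5.30 ± 0.52 (edgeR adjusted p = 5.82e-05) and -6.07 ± 0.53 (edgeR adjusted p = 2.2e-05). Il6st (ENSMUSG00000021756, chr13:112464070-112510086), which encodes gp130 itself, the chain that all receptors of this class except the leptin receptor share, was lower to a smaller extent. Its levels were 5.41, 13.81 and 10.15 CPM in Il-17rb-Cre, 47.28, 49.81 and 21.65 CPM in Il-17ra-Cre and 34.26, 45.75, 36.87 and 49.20 CPM in Il-17rc-Cre. The Il6st differences were -2.01 ± 0.39 (edgeR adjusted p = 0.00248) and -2.08 ± 0.37 (edgeR adjusted p = 0.00167).

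Lifr (ENSMUSG00000054263, chr15:7090614-7197489), the leukemia inhibitory factor receptor, was at 5.09, 9.62 and 6.68 CPM in Il-17rb-Cre, at 25.29, 17.01 and 14.94 CPM in Il-17ra-Cre and at 7.39, 12.89, 7.33 and 11.78 CPM in Il-17rc-Cre. It was lower than in Il-17ra-Cre by -1.42 ± 0.34 (edgeR adjusted p = 0.0078), while the Il-17rb-Cre and Il-17rc-Cre libraries overlapped. Il6ra, which binds interleukin-6, was low in all lines, between 0.12 and 4.51 CPM, and lower in Il-17rb-Cre by -2.68 ± 0.73 and -2.34 ± 0.70 (edgeR adjusted p = 0.015 and 0.023). The Il6ra difference from Il-17ra-Cre was -2.19 (adjusted p = 0.0544) without Il-17ra-Cre replicate 2, and that from Il-17rc-Cre was between -2.39 and -1.94, with adjusted p values from 0.0543 to 0.0656, without Il-17rb-Cre replicate 1 or 2 or Il-17rc-Cre replicate 2. Cntfr, the chain that binds ciliary neurotrophic factor, kept a substantial level everywhere. It was at 27.42, 34.30 and 35.06 CPM in Il-17rb-Cre, at 63.83, 76.42 and 55.77 CPM in Il-17ra-Cre and at 125.4, 71.40, 215.5 and 69.73 CPM in Il-17rc-Cre. The difference from Il-17rc-Cre passed, at -1.90 ± 0.38 (edgeR adjusted p = 0.00318). Against Il-17ra-Cre the lines did not overlap and edgeR's adjusted p was 0.0599. That difference passed in 9 of 21 alternatives, by DESeq2 (-1.03, adjusted p = 0.0273) and without Il-17rc-Cre replicate 2 (-1.02, 0.0436), 3 (-1.02, 0.0118) or 4 (-1.02, 0.0431) among them. Il11ra1, which binds interleukin-11, was at 23.69, 36.72 and 28.19 CPM in Il-17rb-Cre and between 40.92 and 70.89 CPM elsewhere, with differences of -0.81 ± 0.23 and -1.05 ± 0.22 (edgeR adjusted p = 0.0173 and 0.0038). Against Il-17ra-Cre it did not pass without Il-17rb-Cre replicate 1 (-0.67, adjusted p = 0.0698) or replicate 3 (-0.78, adjusted p = 0.06), and near-identical copies of this gene leave its counts uncertain. Lepr, the leptin receptor, reached 0.84 CPM at most and passed in no comparison.

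The 4 interferon receptor chains divided. The 3 chains Ifnar1, Ifnar2 and Ifngr1 were lower in Il-17rb-Cre in both comparisons (class medians -1.69 and -1.54), and Ifngr2 was not. Beside them, 24.4% and 21.9% of all tested genes were lower. Ifnar2 (ENSMUSG00000022971, chr16:91372783-91405589), the high-affinity chain of the type I interferon receptor, was at 8.30, 8.84 and 7.19 CPM in Il-17rb-Cre. It was at 49.36, 46.36 and 45.82 CPM in Il-17ra-Cre and at 19.34, 53.21, 28.69 and 39.64 CPM in Il-17rc-Cre. No library of the other lines came down to the Il-17rb-Cre range, and the differences were -2.54 ± 0.32 (edgeR adjusted p = 0.000253) and -2.12 ± 0.31 (edgeR adjusted p = 0.000486). Its partner chain Ifnar1 (ENSMUSG00000022967, chr16:91485238-91507441) was at 7.06, 14.47 and 12.21 CPM in Il-17rb-Cre, at 22.37, 30.20 and 15.26 CPM in Il-17ra-Cre and at 21.52, 25.84, 23.50 and 19.42 CPM in Il-17rc-Cre. The Ifnar1 differences were smaller, at -1.01 ± 0.31 (edgeR adjusted p = 0.0246) and -1.0 ± 0.29 (edgeR adjusted p = 0.0203). The first did not pass without Il-17ra-Cre replicate 1 or 2 or Il-17rb-Cre replicate 1 or 3, with differences from -1.07 to -0.75 and adjusted p values from 0.0551 to 0.105, nor did the second without Il-17rb-Cre replicate 1 (-0.81, adjusted p = 0.0568).

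Ifngr1 (ENSMUSG00000020009, chr10:19591949-19610229), the chain that binds interferon gamma, was at 6.98, 5.14 and 5.16 CPM in Il-17rb-Cre, at 36.72, 38.50 and 14.97 CPM in Il-17ra-Cre and at 14.53, 32.15, 23.43 and 26.36 CPM in Il-17rc-Cre. It was lower in Il-17rb-Cre by -2.38 ± 0.39 (edgeR adjusted p = 0.00107) and -2.07 ± 0.38 (edgeR adjusted p = 0.00178). Ifngr2, the second chain of that receptor, which brings in JAK2, was at 61.81, 84.88 and 73.63 CPM in Il-17rb-Cre, at 29.92, 67.80 and 51.54 CPM in Il-17ra-Cre and at 54.94, 69.78, 65.03 and 49.77 CPM in Il-17rc-Cre. The 3 lines overlapped for Ifngr2, and no comparison passed. Without Il-17ra-Cre replicate 2, Ifngr2 was higher in Il-17rb-Cre than in Il-17ra-Cre by 0.85 (edgeR adjusted p = 0.0384), and with the replicate number of the title as a block by 0.61 (0.0465).

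Of the 5 classes, the 10 TNF receptor genes had the widest median differences. In Il-17rb-Cre, 7 were lower and 1 higher than in Il-17ra-Cre, and 8 were lower than in Il-17rc-Cre (class medians -3.88 and -3.8). Of all tested genes, 24.4% were lower and 16.4% higher than in Il-17ra-Cre, and 21.9% lower and 17.7% higher than in Il-17rc-Cre. Ltbr (ENSMUSG00000030339, chr6:125306571-125313885), the lymphotoxin beta receptor, had the smallest p of all receptors in both comparisons. Its level was 1.05, 1.46 and 1.59 CPM in Il-17rb-Cre. It was 36.26, 32.19 and 32.20 CPM in Il-17ra-Cre, with little spread, and 47.02, 33.53, 52.19 and 52.16 CPM in Il-17rc-Cre. The log2 differences were -4.61 ± 0.25 (edgeR adjusted p = 3.42e-06) and -5.08 ± 0.25 (edgeR adjusted p = 1.1e-06). Fas (ENSMUSG00000024778, chr19:34290666-34327772), a receptor that carries a death domain, was under 0.5 CPM in each Il-17rb-Cre library, at 0.47, 0.33 and 0.49 CPM. In Il-17ra-Cre it was at 25.74, 21.68 and 36.27 CPM, and in Il-17rc-Cre at 22.74, 41.10, 40.15 and 55.33 CPM. The Fas differences were -6.02 ± 0.40 (edgeR adjusted p = 7.5e-06) and -6.54 ± 0.40 (edgeR adjusted p = 3.23e-06).

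Tnfrsf1a (ENSMUSG00000030341, chr6:125349362-125362484), the main receptor of soluble TNF, was among the most abundant of these genes outside Il-17rb-Cre. It was at 109.3, 97.49 and 109.4 CPM in Il-17ra-Cre and at 142.2, 140.2, 196.9 and 190.3 CPM in Il-17rc-Cre, against 0.79, 2.7 and 3.35 CPM in Il-17rb-Cre. The differences were -5.52 ± 0.47 (edgeR adjusted p = 2.55e-05) and -6.19 ± 0.48 (edgeR adjusted p = 1.01e-05). Tnfrsf19 (ENSMUSG00000060548, chr14:60963875-61046490), a family member known as TROY, was lower but remained present, at 13.40, 20.47 and 16.87 CPM in Il-17rb-Cre. Its levels were 119.2, 130.7 and 104.4 CPM in Il-17ra-Cre and 163.7, 197.6, 245.4 and 254.3 CPM in Il-17rc-Cre, and the differences were -2.80 ± 0.23 (edgeR adjusted p = 2e-05) and -3.67 ± 0.23 (edgeR adjusted p = 3.5e-06). Those of Tnfrsf1b, the second TNF receptor, were -5.77 ± 1.32 and -3.93 ± 1.20 (edgeR adjusted p = 0.00623 and 0.0251), and the one from Il-17rc-Cre did not pass without Il-17rb-Cre replicate 1 or 3 or Il-17rc-Cre replicate 2, with -3.88 to -3.0 and adjusted p values from 0.0509 to 0.0813. Tnfrsf11b, the secreted decoy receptor osteoprotegerin, was lower by -3.14 ± 0.61 and -3.15 ± 0.59 (edgeR adjusted p = 0.00248 and 0.0021). Cd40, a receptor of antigen-presenting cells, was lower by -5.20 ± 1.11 and -4.42 ± 1.05 (edgeR adjusted p = 0.00428 and 0.00786), from at most 0.36 CPM in Il-17rb-Cre.

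The members of the TNF class that were not called lower in both comparisons were Tnfrsf21, Tnfrsf12a and Tnfrsf25. Tnfrsf21 (ENSMUSG00000023915, chr17:43016555-43089189), death receptor 6, which is known from axon pruning in neurons, was at 65.53, 95.00 and 73.56 CPM in Il-17rb-Cre. It was at 29.76, 45.67 and 45.92 CPM in Il-17ra-Cre and at 45.10, 67.33, 52.29 and 45.43 CPM in Il-17rc-Cre. All 3 Il-17rb-Cre libraries were above those of Il-17ra-Cre, a log2 difference of 0.95 ± 0.23 (edgeR adjusted p = 0.00921), whereas Il-17rb-Cre replicate 1 lay within the Il-17rc-Cre range and that comparison did not pass. Tnfrsf12a, the receptor of the ligand TWEAK, was even in Il-17rb-Cre at 39.70, 33.78 and 33.51 CPM and uneven elsewhere. It was at 65.10, 59.71 and 259.8 CPM in Il-17ra-Cre and at 67.70, 277.3, 101.4 and 307.7 CPM in Il-17rc-Cre. The Il-17rb-Cre libraries lay below all others. The Tnfrsf12a difference from Il-17rc-Cre was -2.40 ± 0.67 (edgeR adjusted p = 0.0166), and it was -2.42 both without Il-17rb-Cre replicate 2 (adjusted p = 0.054) and without replicate 3 (0.0537). Against Il-17ra-Cre it just missed (edgeR adjusted p = 0.0512) and was called lower in 10 of 21 alternatives, DESeq2 among them (-1.83, adjusted p = 0.00848), and without Il-17ra-Cre replicate 1 (-2.15, 0.0421), Il-17ra-Cre replicate 2 (-2.19, 0.0383) or Il-17rc-Cre replicate 1 (-1.85, 0.0372). Tnfrsf25, death receptor 3, stayed under 1 CPM in every library and passed in no comparison.

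The starts of some of these genes carry short sequences to which factors of the same pathways are known to bind. The mouse RefSeq annotation (GRCm38.p6) gave start sites for 31 of the 37 receptors. In the 250 bases before each start, the letters TTCNNNGAA (a gamma-activated site, bound by STAT proteins) and the usual letters of an interferon-stimulated response element and of an NF-kappaB site were searched on both strands. TTCNNNGAA was found for 6 of the 31 (19.4%), namely Fas, Ifnar2, Il18r1, Tnfrsf1a, Tnfrsf1b and Tnfrsf25, and for 8.13% of 27025 genes. The 31 receptors have 47 start sites and the 27025 genes 32851, so more sequence was searched per receptor. Counted by start site, a match was found at 6 of the 47 and at 7.02% of the 32851. Il18r1 and Tnfrsf25 are among the receptors with the fewest counts, so matches are found at members with many and with few counts. The interferon-stimulated response element was found for Tnfrsf1b alone (3.23%, beside 3.46% of all genes) and overlapped no TTCNNNGAA match, and the NF-kappaB site for Ifngr2 alone (3.23%, beside 0.414%). A match describes the letters and is not a site shown to be used. Of the windows with a match, those of Fas, Ifnar2, Tnfrsf1b and Ifngr2 held 0 bases of annotated exons, and only these 4 are given. The matched windows of Tnfrsf1a, Il18r1 and Tnfrsf25 held 36, 91 and 22 such bases and were left out. The windows below read 5′ to 3′ on the strand of the gene, with each match in capitals, and run over chr19:34290409-34290658 (plus strand) for Fas, chr16:91372533-91372782 (plus) for Ifnar2, chr4:145246871-145247120 (minus) for Tnfrsf1b and chr16:91546809-91547058 (plus) for Ifngr2.
Fas: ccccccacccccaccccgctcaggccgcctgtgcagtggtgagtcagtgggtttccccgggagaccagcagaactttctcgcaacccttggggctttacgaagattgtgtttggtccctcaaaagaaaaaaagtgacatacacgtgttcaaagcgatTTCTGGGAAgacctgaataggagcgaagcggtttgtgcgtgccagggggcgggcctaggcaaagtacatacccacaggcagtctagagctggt
Ifnar2: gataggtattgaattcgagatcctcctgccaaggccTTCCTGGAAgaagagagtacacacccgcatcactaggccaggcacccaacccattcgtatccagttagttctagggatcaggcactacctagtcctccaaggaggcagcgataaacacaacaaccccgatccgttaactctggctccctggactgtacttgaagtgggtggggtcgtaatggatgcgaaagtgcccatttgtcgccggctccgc
Tnfrsf1b: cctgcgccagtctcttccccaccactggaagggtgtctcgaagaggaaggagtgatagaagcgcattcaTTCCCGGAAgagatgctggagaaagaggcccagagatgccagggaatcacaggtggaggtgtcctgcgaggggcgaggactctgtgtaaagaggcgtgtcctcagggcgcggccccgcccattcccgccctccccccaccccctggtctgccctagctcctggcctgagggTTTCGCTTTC
Ifngr2: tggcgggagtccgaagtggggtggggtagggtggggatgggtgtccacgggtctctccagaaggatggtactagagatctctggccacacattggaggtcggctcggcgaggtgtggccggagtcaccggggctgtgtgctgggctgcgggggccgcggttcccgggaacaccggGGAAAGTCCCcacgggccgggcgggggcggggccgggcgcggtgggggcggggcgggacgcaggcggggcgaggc

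Of the 3 TGF-beta receptors, 2 were lower in Il-17rb-Cre than in Il-17ra-Cre and 1 lower than in Il-17rc-Cre (class medians -1.77 and -0.74), where 24.4% and 21.9% of all tested genes were lower. Tgfbr2 (ENSMUSG00000032440, chr9:116084293-116175360), the kinase that binds the ligand first, was at 1.76, 1.34 and 2.24 CPM in Il-17rb-Cre. In Il-17ra-Cre it was at 7.84, 19.00 and 7.29 CPM, and in Il-17rc-Cre at 9.61, 19.45, 10.12 and 8.67 CPM. The differences were -2.67 ± 0.47 (edgeR adjusted p = 0.00154) and -2.75 ± 0.46 (edgeR adjusted p = 0.00108). Tgfbr1 (ENSMUSG00000007613, chr4:47353222-47414931), the kinase that Tgfbr2 then activates, was at 2.97, 4.06 and 2.04 CPM in Il-17rb-Cre, at 10.19, 14.36 and 6.38 CPM in Il-17ra-Cre and at 3.11, 4.81, 1.47 and 2.79 CPM in Il-17rc-Cre. Il-17ra-Cre thus lay above both other lines, which overlapped each other. The Tgfbr1 difference from Il-17ra-Cre was -1.77 ± 0.47 (edgeR adjusted p = 0.0135), or -1.47 (adjusted p = 0.0523) without Il-17ra-Cre replicate 2 and -1.56 (0.0526) without Il-17rb-Cre replicate 3. Tgfbr3 (ENSMUSG00000029287, chr5:107106570-107289629), the co-receptor betaglycan, was at 1.80, 3.24 and 1.03 CPM in Il-17rb-Cre, at 4.53, 2.28 and 0.84 CPM in Il-17ra-Cre and at 3.83, 5.24, 1.62 and 2.83 CPM in Il-17rc-Cre, with all lines overlapping.

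Several of the receptors are neighbours in the genome, and neighbours did not always go together. On GRCm38, 15 of the 37 lie within 300 kb of another, in 9 adjacent pairs. The run of Ifnar2, Il10rb, Ifnar1 and Ifngr2 occupies chr16:91372783-91565623, and its first 3 genes were lower in Il-17rb-Cre in both comparisons while Ifngr2, 39.6 kb beyond Ifnar1, passed in neither. Ltbr and Tnfrsf1a, 35.5 kb apart on chromosome 6, were both lower in both comparisons. Osmr and Lifr are 216 kb apart on chromosome 15, and of these Osmr was lower in both comparisons and Lifr in one. Cntfr and Il11ra1 lie 2.90 kb apart on chromosome 4. Both were lower in Il-17rb-Cre than in Il-17rc-Cre, and against Il-17ra-Cre only Il11ra1 passed.

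Scaled to exonic length, so that genes can be set beside each other, the order of the receptors differed between the lines. In Il-17rb-Cre the highest levels were those of Ifngr2 (19.5 ± 3.06 CPM per kb, SD), Tnfrsf21 (19.0 ± 3.71) and Tnfrsf12a (18.5 ± 1.81), which do not differ beyond their spread. Cntfr (11.6 ± 1.51 CPM per kb), Il11ra1 (6.61 ± 1.48) and Csf2ra (5.56 ± 0.19) followed. In Il-17ra-Cre and Il-17rc-Cre the same 5 genes came first in the same order, Tnfrsf12a, Tnfrsf1a, Tnfrsf19, Cntfr and Ltbr. Tnfrsf1a was at 40.7 ± 2.65 CPM per kb in Il-17ra-Cre and 64.6 ± 11.7 in Il-17rc-Cre, and at a mean of 0.88 CPM per kb in Il-17rb-Cre. Of the 36 pairs of neighbours in each order, 34 overlapped in Il-17ra-Cre, 32 in Il-17rb-Cre and 34 in Il-17rc-Cre, so only a few neighbouring ranks are separated. A mean above 1 CPM per kb was reached by 30 receptors in Il-17ra-Cre, 12 in Il-17rb-Cre and 26 in Il-17rc-Cre.

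**Figure D4:**
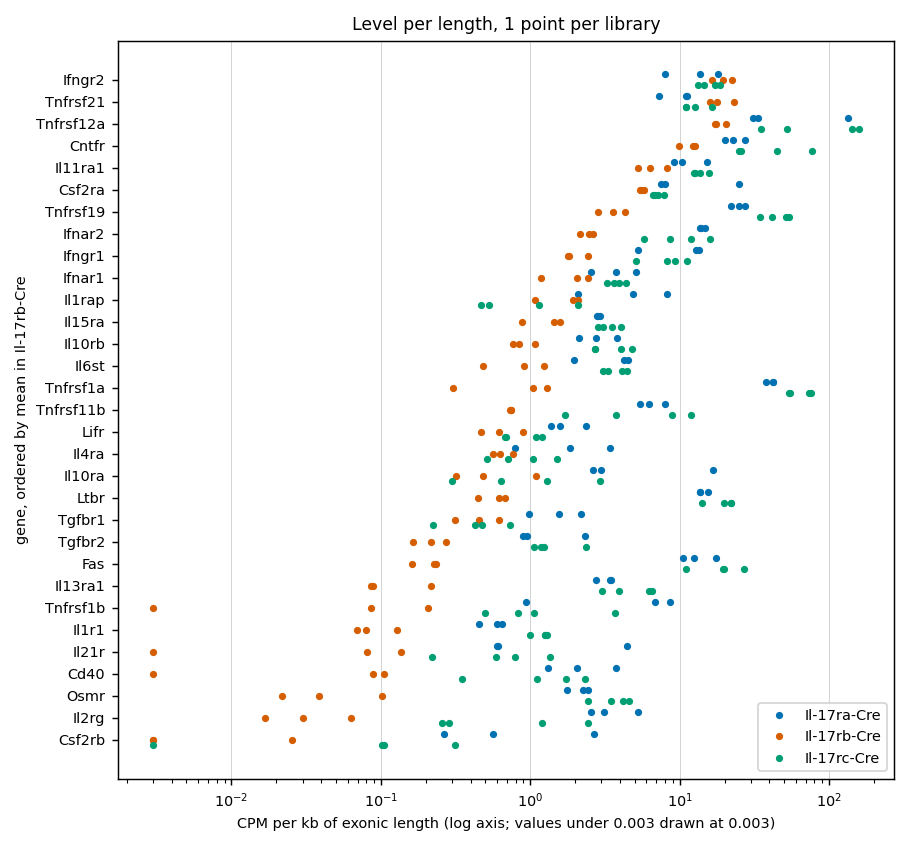
Level in CPM per kb of exonic length of the receptor genes with a mean above 1 CPM per kb in at least 1 line. The axis is logarithmic, values under 0.003 are drawn at 0.003, and each library gives 1 point. Genes are ordered by their mean in Il-17rb-Cre. Ifngr2, Tnfrsf21 and Tnfrsf12a lead in Il-17rb-Cre with means of 19.5, 19.0 and 18.5 CPM per kb, and Tnfrsf1a, Fas and Osmr are among the genes whose Il-17rb-Cre points lie apart from the others.

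Because the chains of one receptor moved by different amounts, the balance of subunits was computed within each library, as a ratio of levels per length. These 9 ratios were chosen after the levels were seen and were not tested. Ifngr1 relative to Ifngr2 ranged from 0.0801 to 0.149 in Il-17rb-Cre, below the 0.384 to 1.62 of Il-17ra-Cre and the 0.35 to 0.701 of Il-17rc-Cre. The chain that binds interferon gamma was thus the scarcer transcript in every Il-17rb-Cre library. It was also the scarcer one in every Il-17rc-Cre library and in Il-17ra-Cre replicates 2 and 3, by a smaller margin. Osmr relative to Il6st ranged from 0.031 to 0.111 in Il-17rb-Cre, from 0.531 to 0.906 in Il-17ra-Cre and from 0.787 to 1.26 in Il-17rc-Cre. Lifr relative to Il6st went the other way, from 0.677 to 0.969 in Il-17rb-Cre, overlapping the 0.352 to 0.711 of Il-17ra-Cre and above the 0.205 to 0.29 of Il-17rc-Cre. So between Osmr and Lifr, the higher transcript per length was Lifr in each Il-17rb-Cre library and Osmr in each Il-17rc-Cre library. Their order differed among the Il-17ra-Cre libraries. The mean levels of Cntfr and Il11ra1 per length were above those of both in Il-17rb-Cre and Il-17rc-Cre.

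Il4ra relative to Il13ra1 was between 2.61 and 8.63 in Il-17rb-Cre, above the 0.227 to 1.24 of Il-17ra-Cre and the 0.108 to 0.265 of Il-17rc-Cre. Il1rap relative to Il1r1 was between 13.4 and 27.9 in Il-17rb-Cre, between 3.52 and 12.7 in Il-17ra-Cre and between 0.42 and 1.66 in Il-17rc-Cre, with no overlap of the 3 lines. For both of these receptors the shared chain was the more abundant transcript in each Il-17rb-Cre library. Il1rap was so in each Il-17ra-Cre library and Il-17rc-Cre replicate 2 as well, and Il4ra in Il-17ra-Cre replicate 2. The Il-17rb-Cre ratios rest on few counts of the other chain, 17, 60 and 23 of Il13ra1 and 27, 61 and 31 of Il1r1. Tgfbr1 relative to Tgfbr2 separated Il-17rc-Cre, at 0.182 to 0.405, from Il-17ra-Cre at 0.947 to 1.63 and Il-17rb-Cre at 1.14 to 3.81. Ifnar1 relative to Ifnar2 ranged from 0.477 to 0.952 in Il-17rb-Cre, overlapping Il-17rc-Cre at 0.272 to 0.624 but not Il-17ra-Cre at 0.187 to 0.365. Il11ra1 relative to Il6st ranged from 6.6 to 10.9 in Il-17rb-Cre, overlapping Il-17ra-Cre at 2.15 to 7.84 and above Il-17rc-Cre at 2.83 to 4.77. Il6ra relative to Il6st overlapped between all lines.

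**Figure D5:**
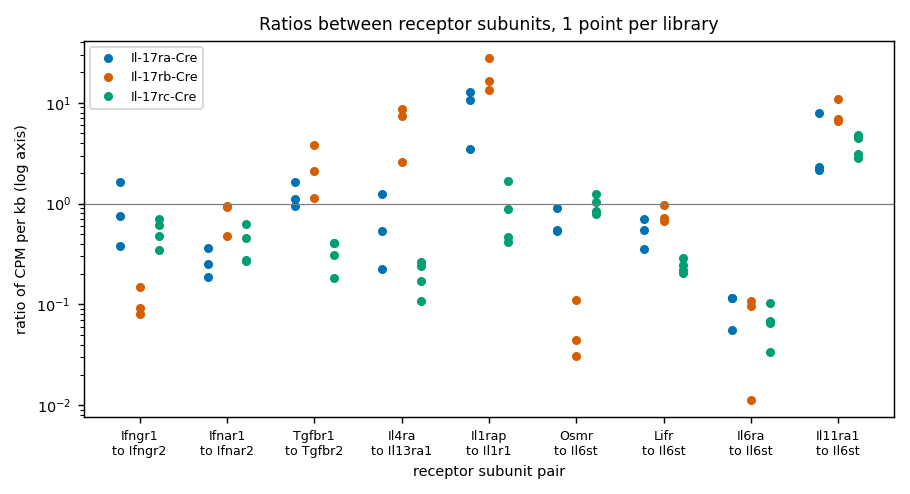
Ratio of CPM per kb (log axis) between the subunits of 9 receptor pairs, with 1 point per library and the driver line by color. Ifngr1 to Ifngr2 and Osmr to Il6st are lowest in Il-17rb-Cre, at 0.0801 to 0.149 and 0.031 to 0.111, and Il4ra to Il13ra1 and Il1rap to Il1r1 are highest there.

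Between Il-17ra-Cre and Il-17rc-Cre no receptor of the 35 passed edgeR's test, where 2.18% of all tested genes did (1.38% higher in Il-17ra-Cre and 0.798% lower). Of the 35, 12 had an unadjusted p under 0.05 by edgeR, and DESeq2 called 5 and limma voom 13. The median log2 difference was -0.07, beside 0.03 over all tested genes. Every Il-17ra-Cre library lay above every Il-17rc-Cre library for 4 receptors (Il1rap, Il2rg, Lifr and Tgfbr1), an ordering seen for 7.92% of all genes, and below for 3 (Il1r1, Tnfrsf1a and Tnfrsf19), as for 6.65% of all genes. This comparison depended on single libraries. Without Il-17ra-Cre replicate 3 edgeR called 4 receptors (Il1rap, Il4ra, Tgfbr1 and Tnfrsf19), and without Il-17rc-Cre replicate 2 it called 2 (Il1rap and Tgfbr1). In this comparison 5 of 10 microglial markers and 7 of 7 oligodendrocyte markers were higher in Il-17ra-Cre and 2 of 7 mural cell markers lower, and their part in the receptor levels was not tested.

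The ligands of these receptors were often lower in Il-17rb-Cre as well. Of 31 tested ligand genes of 38, 19 were lower than in Il-17ra-Cre (61.3%, beside 24.4% of all tested genes, with a median log2 fold change -3.61, or -3.45 with the 6 genes that had no counts in 1 group set at the limit of 3 counts). Against Il-17rc-Cre 18 were lower (58.1%, beside 21.9%) and 1, Il4, higher (median -3.29). Il15 was lower by -5.96 ± 0.48 and -6.63 ± 0.49 (edgeR adjusted p = 2e-05 and 8.12e-06), in parallel with its receptor chains Il15ra and Il2rg. Il18 was lower by -3.45 ± 0.29 and -3.87 ± 0.28 (edgeR adjusted p = 2.25e-05 and 7.97e-06), although its receptor Il18r1 had almost no counts in any line. Between Il-17ra-Cre and Il-17rc-Cre, Il33, an interleukin-1 family alarmin, was higher in Il-17ra-Cre by 2.89 ± 0.57 (edgeR adjusted p = 0.0411) and Tnfsf13b, the B cell factor BAFF, by 3.79 ± 0.77 (edgeR adjusted p = 0.0439). Its receptor Tnfrsf13c was higher by 2.92 ± 0.59 (edgeR adjusted p = 0.0426) and the phosphatase Ptpn11 by 0.90 ± 0.19 (edgeR adjusted p = 0.0451). The Il33 difference was 2.23 without Il-17ra-Cre replicate 1, and 0.38 with replicate 3 as the only library of that line. Each of these last 4 calls was lost in 13 or more of 21 alternative analyses, with adjusted p values from 0.12 to 0.189 without Il-17ra-Cre replicate 1 or 2 or Il-17rc-Cre replicate 1 or 3.

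The lists of signal carriers had medians below 0 in Il-17rb-Cre, to unequal degrees. Their counts stand beside 24.4% of all tested genes lower and 16.4% higher against Il-17ra-Cre, and 21.9% lower and 17.7% higher against Il-17rc-Cre. Of 12 JAK and STAT genes, 9 were lower than in Il-17ra-Cre (75.0%, median -1.78) and 8 lower than in Il-17rc-Cre (66.7%, -1.35). Stat3, the main carrier of gp130 signals, was lower by -3.34 ± 0.32 and -2.95 ± 0.31 (edgeR adjusted p = 5.04e-05 and 6.23e-05). Irf9, a transcription factor of type I interferon signalling, was lower than in Il-17rc-Cre by -1.15 ± 0.21 (edgeR adjusted p = 0.00197). Among 12 genes that restrain these pathways, 5 were lower (41.7%) and 1 higher than in Il-17ra-Cre (median -0.45), and 4 lower (33.3%) and 2 higher than in Il-17rc-Cre (-0.24). The latter counts are near those of all genes. The inhibitor Socs3, a target of STAT3, was lower by -4.96 ± 0.39 and -4.21 ± 0.37 (edgeR adjusted p = 1.6e-05 and 2.12e-05), and Socs1 by -3.90 ± 0.62 and -3.83 ± 0.60 (edgeR adjusted p = 0.000852 and 0.000765). The exception in both comparisons was Socs2, and Socs7 joined it against Il-17rc-Cre.

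Of 19 adaptors of the interleukin-1 and TNF receptors, 15 were lower in each comparison (78.9%, medians -2.03 and -2.44). Cflar, which blocks caspase-8 at death receptors such as Fas, was lower by -4.13 ± 0.34 and -3.91 ± 0.32 (edgeR adjusted p = 2e-05 and 1.57e-05), and Myd88, the adaptor of the interleukin-1 receptor, by -2.87 ± 0.26 and -2.99 ± 0.25 (edgeR adjusted p = 3.32e-05 and 1.63e-05). Of 12 NF-kappaB genes, 11 (91.7%) and 8 (66.7%) were lower (-1.97 and -1.76). Nfkb2, the subunit that Ltbr and Cd40 engage, was lower by -4.85 ± 0.46 and -4.90 ± 0.45 (edgeR adjusted p = 4.57e-05 and 2.92e-05), and the inhibitor Nfkbie by -3.17 ± 0.37 and -3.24 ± 0.36 (edgeR adjusted p = 0.000139 and 9.13e-05). Of 12 SMAD pathway genes, 5 (41.7%) and 6 were lower and Skil was higher against Il-17rc-Cre, with medians of -0.61 and -0.57. The SMAD repressor Tgif1 was lower by -4.27 ± 0.32 and -4.87 ± 0.32 (edgeR adjusted p = 1.36e-05 and 4.54e-06) and Smad5, which bone morphogenetic protein receptors activate, by -3.31 ± 0.27 and -2.89 ± 0.26 (edgeR adjusted p = 2.24e-05 and 2.63e-05).

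Other receptors of the same families, outside the 37, were described in the same way. Of 42 tested of 49, 20 were lower (47.6%, beside 24.4% of all genes) and 2 higher than in Il-17ra-Cre (median -2.79). Against Il-17rc-Cre 17 were lower (40.5%, beside 21.9% of all genes) and 3 higher (-2.29). The interleukin-3 receptor chain Il3ra was lower than in Il-17ra-Cre by -6.12 ± 0.82 (edgeR adjusted p = 0.000331). Il2rb, a partner of Il2rg, had no counts in Il-17rb-Cre and 1528 in Il-17ra-Cre, and its edgeR adjusted p was 0.00143. Bmpr1b and Bmpr1a, receptors of bone morphogenetic proteins, were lower than in Il-17rc-Cre by -2.95 ± 0.40 and -1.61 ± 0.24 (edgeR adjusted p = 0.000302 and 0.000532). The higher ones were Il1rapl1, a synaptic relative of Il1rap, and the activin receptor Acvr2a in both comparisons, and the activin receptor Acvr1b against Il-17rc-Cre.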

How the data were processed

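The values deposited by the authors are raw counts per gene, made from reads aligned with STAR 2.7.5c to GRCm38 per the submitters' processing notes. Per the labels' protocols, libraries came from cDNA amplified with a SMART-Seq v4 kit, which keeps no strand. No source used here gives the counting tool, strand setting or annotation, so overlapping genes and near-identical copies are uncertain, and amplified reads without molecular identifiers are not independent molecules. Identifiers were named and measured (exonic length, coordinates) from GENCODE M21, and all matched. Libraries held 39692925 to 165844244 counts. Genes passing edgeR's expression filter by group, plus the IL-17 receptor genes, were kept (20301). They were scaled by TMM and tested in edgeR 4.0.16 (R 4.3.3) with all 10 libraries in 1 model, Benjamini-Hochberg adjusted at 0.05 within a comparison (common dispersion 0.239). The script was also tested on simulated data. CPM values are TMM-scaled, errors beside levels are SD and beside log2 differences SE.

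The members and gene lists were chosen with earlier results of these data known. In the text, fold changes of the full data are given only for comparisons a member passed. For other comparisons the printed values are from alternatives that called the member, and were picked because they passed. Values in every library are given for the 3 members per class with the smallest p in Il-17rb-Cre against Il-17ra-Cre, for members higher in Il-17rb-Cre or called between Il-17ra-Cre and Il-17rc-Cre, and for untested members. Those of Il4ra, Il1rap, Il10ra, Cntfr, Ifngr2, Tnfrsf1a and Tnfrsf12a were added after their values were seen. From each signalling list up to 2 members with the smallest p per comparison are named, of which 1 is not reported here; members higher in Il-17rb-Cre were named after their values were seen. Alternatives were DESeq2 1.42.0, voom in limma 3.58.1, other scalings and filters, 2-group models, replicate blocks and libraries left out.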

Additional observations from a re-analysis of the deposited data

Results flagged for a closer look

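In groups of 4 libraries, a library was picked out where its gap to the nearest other took up more than Dixon's 95% critical share of the range, which chance gives for about 1 in 20 genes of this kind. This held for 4 of the 37 receptors, all in Il-17rc-Cre, the line with 4 libraries. Il1r1 was lowest in replicate 1 at 6.32 CPM. Il1rl1 was highest in replicate 4 at 0.694 CPM and Il18r1 in replicate 2 at 0.54 CPM, the libraries that held all counts of these genes in that line. With the other libraries at 0 these gaps fill the whole range by construction, so the chance rate does not apply to them. Tgfbr2 was highest in replicate 2 at 19.45 CPM.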

How the results depend on the processing

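All 28 receptors called between Il-17rb-Cre and Il-17ra-Cre and all 23 called between Il-17rb-Cre and Il-17rc-Cre kept their direction in the 21 alternatives. Of these, 14 and 18 passed under each alternative, among them Fas, Ifnar2, Il13ra1, Il1r1, Ltbr, Osmr, Tgfbr2, Tnfrsf19 and Tnfrsf1a in both comparisons. With 1 library left out, 22 to 30 and 19 to 23 receptors were called, and 6541 to 9916 and 5946 to 9151 genes. With Il-17ra-Cre replicate 3 as the only library of its line, 16 receptors and 4192 genes (8268 in the full data) were called against it, a fit in which that lone library is assumed to vary like the other lines. Upper quartile scaling moved the median of all genes from -0.09 to 0.04 and from 0.02 to 0.13.

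Between Il-17ra-Cre and Il-17rc-Cre the counts moved most. The 443 genes called became 691 with a filter at 1 CPM, 2101 by DESeq2, 4579 by limma voom, 1 in a model of only the 2 groups, 0 to 2886 with 1 library left out, and 0 without Il-17ra-Cre replicates 1 and 2 or without Il-17rc-Cre replicates 1 and 3. The receptors called, 0 in the full data, were 2 with the filter at 1 CPM, 5 by DESeq2, 1 with DESeq2 size factors or upper quartile scaling, 13 by limma voom and 0 to 4 with 1 library left out. Of the genes called, 63.4% were higher in Il-17ra-Cre, 48.9% with DESeq2 size factors and 46.6% by DESeq2. The cause was not tested.

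Deviations from the line mean correlated from -0.0826 to 0.181 between same-numbered libraries of different lines. Between libraries with different title numbers they correlated from -0.195 to 0.0838. With so few libraries per line, these values cannot decide whether the replicate numbers pair the libraries. With the replicate block by the number in the title, 26 and 21 receptors were called against Il-17ra-Cre and Il-17rc-Cre, and 27 and 22 by the number in the library name. Between Il-17ra-Cre and Il-17rc-Cre the blocks called 0 receptors, and 2 genes by title and 1 by library name.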
